A study of Homo sapiens with 11 samples.

Results

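Asparagine-linked (N-linked) glycosylation and the hexosamine pathway that feeds it were followed through 39 genes, chosen by name from the 38021 genes of the count table and described in the order in which their products act. They comprise 5 genes of sugar supply, 19 genes of the lipid-linked oligosaccharide (7 for dolichol and its sugar donors and 12 glycosyltransferases), 9 subunits of oligosaccharyltransferase, and 6 genes of glycan trimming. All 39 passed the filter on low counts and were among the 17793 genes tested. They were named for their place in the pathway, at a time when earlier results of these data were known.

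The pathway works as follows. The hexosamine pathway turns fructose 6-phosphate and glutamine into UDP-N-acetylglucosamine, the first sugar donor. On the membrane of the endoplasmic reticulum (ER), a branched oligosaccharide of N-acetylglucosamine, mannose and glucose is built on the lipid dolichol, first on the cytosolic face and then in the lumen. Oligosaccharyltransferase moves the finished glycan to asparagine residues of proteins entering the ER, after which glucosidases and mannosidases trim it and calnexin and calreticulin read the trimmed forms. Several genes of this route are known targets of the unfolded protein response, the signalling that ER stress sets off through IRE1 and XBP1s, ATF6 and PERK.

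RNA was sequenced from wild-type HEK293T cells, a human embryonic kidney cell line, after 6 h in 1 of 11 conditions. The vehicle was 0.1% DMSO. Thapsigargin, an inhibitor of the ER calcium pump that the labels spell Thapsigargain and that is abbreviated Tg below, was given at 500 nM. AA147, a compound developed as a regulator of ER proteostasis, was given at 10 µM. AA132, a related compound, was given at 0.1, 0.3, 1, 3, 6, 10, 15 and 30 µM. Each condition is 1 sample with 3 columns of counts, treated here as 3 libraries. The labels do not say whether these came from separate cultures, so p-values measure the spread between these libraries, which may be technical.

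The 33 libraries held 32265433 to 37958312 counts each. Of 8 genes that HEK293T cells express, 7 or 8 exceeded 1 CPM, the read count scaled by library size, in all libraries of each condition. Of 12 markers of other cell types, COL1A1 was the 1 that did. The summed level of the first list was 1844 to 1921 CPM under Tg and 2503 to 3067 in vehicle, and that of the second 20.3 to 21 against 40.8 to 50.3. Most of the first sum was VIM (mean 1248 CPM in vehicle, 724.1 under Tg) and KRT8 (887.9 and 633.3). NEFM (39.7 and 51.7) and EPCAM (124.8 and 126.1) did not fall, while the other genes of that list had lower means under Tg. The second sum was nearly all COL1A1 (44.3 and 20). The part of these shifts in the results below was not tested, and in bulk RNA fewer cells expressing a gene and less RNA per cell cannot be told apart. Vehicle library 1 stood apart from the others: it was the lowest of the 30 libraries without Tg in 18% of all genes tested and the highest in 14.7%. Relative to the mean of vehicle libraries 2 and 3 its log2 level had a median difference of -0.21 over the 13 members with transcripts of 4 kb or more and 0.16 over the 11 under 2 kb. Library 1 at 10 µM AA132 was the next most often extreme, lowest in 9.31% of genes and highest in 10.1%. HSPA5, which encodes the ER chaperone BiP and serves as a reference for the size of the response, rose by 3.52 on the log2 scale under Tg (SE 0.171, adjusted p = 1.97e-17), from 1025, 972.6 and 881.5 CPM to 10969, 10778 and 11322.

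Promoter sequences are shown first for the 4 members with the largest rises under Tg and for the only member that holds a complete ER stress element. RefSeq windows of 250 bases before to 50 after a gene's start (GRCh38.p14) were at hand for 35 of the 39 members, with no entry for STT3B, RPN1, TUSC3 and MOGS. Both strands were searched for ERSE (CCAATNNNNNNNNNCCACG), ERSE-II (ATTGGNCCACG), the UPRE core TGACGTGG, the XBP1 core ACGTGG, which the UPRE core contains, and the CARE core TGATGCAA. ERSE is the element through which NF-Y and ATF6 or XBP1s act, and it occurred in 25 of 27305 genes with an entry (0.0916%). ALG12 was the 1 member that held it. Its 19 bases are set beside those of HSPA5 and of the lectin chaperones CANX and CALR, with the CCAAT and CCACG parts in capitals:
HSPA5: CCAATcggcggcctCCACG
CANX: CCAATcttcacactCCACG
CALR: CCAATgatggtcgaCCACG
ALG12: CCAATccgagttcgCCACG

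The match in ALG12 lies at chr22:49918554-49918572, with its first base at -134 from the ALG12 start. The same bases lie at -80 from the RefSeq start of the divergent gene CRELD2, on the other strand. GENCODE, used below for shared exons, begins the CRELD2 gene at 49918167, before the match, so the annotations differ in its start. In the windows below, capitals mark the ERSE in ALG12 and the XBP1 core on the opposite strand (CCACGT) in GFPT1, PGM3 and OSTC. Neither MAGT1 window held a match. For PGM3 the window with a match was chosen for printing, and its other window held none. ALG12 was added to the 4 after its match was seen.
ALG12, chr22:49918389-49918688, minus strand: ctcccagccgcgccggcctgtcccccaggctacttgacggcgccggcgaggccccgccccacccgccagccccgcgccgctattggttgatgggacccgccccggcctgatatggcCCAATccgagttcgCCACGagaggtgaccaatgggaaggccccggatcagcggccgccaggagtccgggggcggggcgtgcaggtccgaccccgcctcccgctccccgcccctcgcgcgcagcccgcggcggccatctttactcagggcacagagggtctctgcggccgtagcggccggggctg
GFPT1, chr2:69387178-69387477, minus strand: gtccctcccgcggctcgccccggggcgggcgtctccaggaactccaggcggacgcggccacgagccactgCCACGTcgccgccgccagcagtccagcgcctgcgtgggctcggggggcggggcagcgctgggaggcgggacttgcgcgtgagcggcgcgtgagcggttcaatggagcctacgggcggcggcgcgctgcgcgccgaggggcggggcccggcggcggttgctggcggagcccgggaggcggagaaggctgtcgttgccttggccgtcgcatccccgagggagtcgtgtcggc
PGM3, chr6:83193216-83193515, minus strand, 1 of 2 windows: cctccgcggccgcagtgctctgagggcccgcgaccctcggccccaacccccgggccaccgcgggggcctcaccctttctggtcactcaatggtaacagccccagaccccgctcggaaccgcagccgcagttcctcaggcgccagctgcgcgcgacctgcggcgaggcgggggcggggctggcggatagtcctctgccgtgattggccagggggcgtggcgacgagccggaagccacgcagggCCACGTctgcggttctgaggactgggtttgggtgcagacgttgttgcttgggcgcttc
OSTC, chr4:108650349-108650648, plus strand: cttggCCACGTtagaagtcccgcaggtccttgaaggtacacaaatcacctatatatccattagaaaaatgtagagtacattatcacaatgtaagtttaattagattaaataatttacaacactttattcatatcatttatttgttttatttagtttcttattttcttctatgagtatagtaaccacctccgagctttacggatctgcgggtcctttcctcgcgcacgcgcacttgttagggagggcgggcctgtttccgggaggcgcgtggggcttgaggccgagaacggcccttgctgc
MAGT1, chrX:77895386-77895685, minus strand, 1 of 2 windows: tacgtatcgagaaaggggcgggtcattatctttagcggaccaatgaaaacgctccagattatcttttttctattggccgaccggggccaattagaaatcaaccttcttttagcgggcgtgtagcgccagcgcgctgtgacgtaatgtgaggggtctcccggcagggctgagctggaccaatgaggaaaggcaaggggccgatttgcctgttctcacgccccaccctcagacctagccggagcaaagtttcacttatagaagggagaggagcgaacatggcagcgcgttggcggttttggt

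The short XBP1 core ACGTGG was present in 13 of the 35 members (37.1%) and in 11.6% of all genes with an entry, tested or not. A gene with several windows counted as holding a motif if any of them did. The other windows of PGM3, UAP1, ALG1 and ALG3 held no match. All 35 members were tested, and among all tested genes with an entry 1874 held the core and 10464 did not. ERSE-II, the UPRE core and the CARE core were present in 0.0696%, 0.927% and 1.08% of genes and in 0 of the 35 members. Of the 13 members with the XBP1 core, 6 were called higher and 1 lower under Tg, and of the 22 without it 16 were called higher and 3 lower. Over all genes tested that have an entry, 23.2% of those with the core and 16.3% of those without it were called higher. A match is a description of the letters in the window, and absence says nothing about a factor.

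In vehicle the members' levels, given as CPM per kb of the canonical transcript so that genes can be compared, ran from 368.7 ± 30.1 (SD, n = 3) for DDOST to 3.07 ± 0.861 for ALG11. Some oligosaccharyltransferase subunits and glucosidase II stood at the top. GANAB, the catalytic subunit of glucosidase II, was at 283.6 ± 10.3 and the scaffold subunit RPN2 at 256.1 ± 7.55. The glucosidase II beta subunit PRKCSH was at 206.2 ± 30.2 and RPN1 at 204 ± 8.09. The last pair differed by less than their spread. Other oligosaccharyltransferase subunits were lower, among them MAGT1 at 32.8 ± 8.56 and TUSC3 at 26.8 ± 0.606. The sugar supply genes also lay below those at the top, with UAP1 at 36.5 ± 2.16 and PGM3 at 21.4 ± 1.9. GFPT1 was at 8.21 ± 1.92, PMM2 at 7.63 ± 0.35 and GNPNAT1 at 6 ± 0.812. GFPT1 and PMM2 could not be ordered beyond their spread. Values below are CPM scaled with TMM, without division by length.

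Under Tg 29 of the 39 members were called at an adjusted p under 0.05, 25 higher and 4 lower, where 31.2% of all genes tested were called, 16.2% higher and 15% lower. The median log2 fold change of the members was 0.32 and that of all genes tested 0.01. Every sugar supply gene and 8 of 9 oligosaccharyltransferase subunits rose. Of the 7 dolichol and sugar donor genes 1 rose, 1 fell and 5 were not called, a share of calls near that of all genes. The plot of Tg responses by step shows each gene with its interval. Whether libraries overlapped is given throughout as a description only, since the share of all genes without overlap was not counted.

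**Figure D1:**
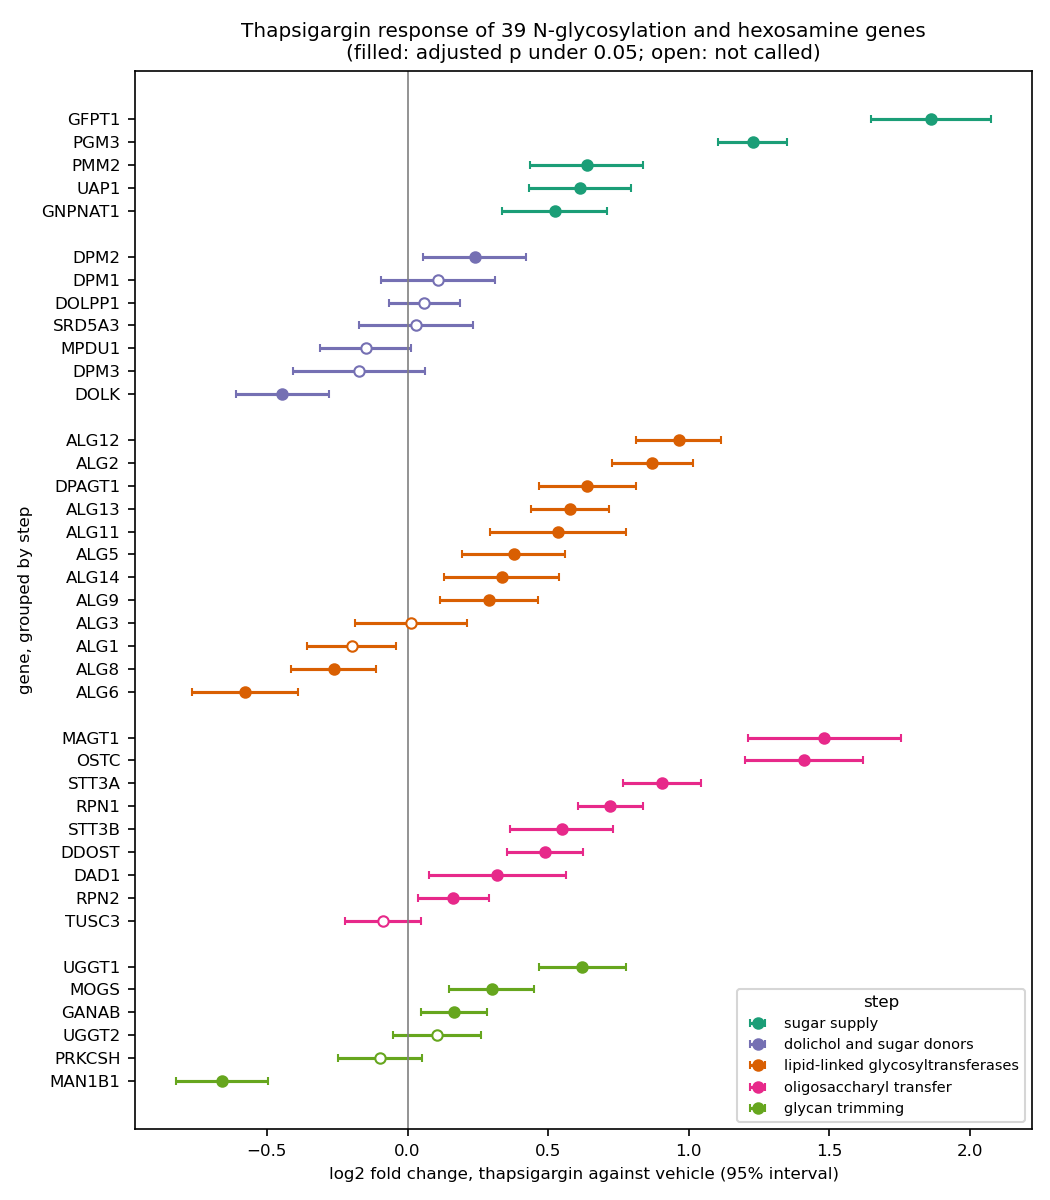
Log2 fold change of each of the 39 members, Tg against vehicle (x axis, points with 95% intervals from the edgeR fit, 3 libraries each), grouped by step on the y axis, with filled points for calls at an adjusted p under 0.05. All 5 sugar supply genes lie above 0, led by GFPT1 at 1.86, while 5 of the 7 dolichol and sugar donor genes are open points near 0.

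Sugar supply rose throughout. GFPT1, the glutamine-fructose-6-phosphate transaminase that commits sugar to the hexosamine pathway, was at 52.5, 84.5 and 76.5 CPM in vehicle and at 247, 261.2 and 268.1 under Tg. The groups were far from overlapping, although vehicle library 1 was low. The rise was 3.64-fold (log2 1.86, SE 0.105, adjusted p = 7.92e-16), and without vehicle library 1 it was 1.68 on the log2 scale. PGM3, the phosphoacetylglucosamine mutase further along the same pathway, went from 117.2, 132.3 and 140 CPM to 307.7, 303.6 and 300.9, with no overlap (log2 1.23, SE 0.06, adjusted p = 2.23e-17). UAP1, which makes UDP-N-acetylglucosamine in the last step, was at 122, 130.3 and 137.3 CPM in vehicle and 199.4, 201.5 and 195 under Tg. All 3 Tg libraries of UAP1 lay above all vehicle libraries, by a smaller margin (log2 0.61, SE 0.089, adjusted p = 1.63e-06). PMM2, the phosphomannomutase on the way to GDP-mannose, went from 17.8, 18 and 16.5 CPM to 26.5, 27.6 and 27.2 without overlap (log2 0.64, SE 0.098). GNPNAT1, the acetyltransferase between GFPT1 and PGM3, had the smallest rise of the 5 (log2 0.52, SE 0.092). Exons of genes on the opposite strand share 36.9% of the GNPNAT1 transcript, 17.6% of that of PGM3 and 15.6% of that of PMM2. The use of strand in counting is not given, so these values may hold reads of the neighbours.

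Of the genes that make dolichol phosphate and its mannose donor, DOLK and DPM2 passed the test. DOLK, the kinase that makes dolichol phosphate, was at 55.6, 43.8 and 53 CPM in vehicle and at 35.4, 41 and 35.5 under Tg. All Tg libraries were below all vehicle libraries (log2 -0.45, SE 0.081, adjusted p = 5.39e-05). DPM2, a regulatory subunit of dolichol phosphate mannose synthase, was at 71.7, 57.9 and 58.2 CPM in vehicle and 74.3, 75 and 72.4 under Tg. These groups did not overlap but came close, and the call (log2 0.24, SE 0.091, adjusted p = 0.0429) was lost in 6 of 11 alternatives, among them those without any 1 of the Tg libraries or without vehicle library 2 or 3 (adjusted p 0.00371 to 0.203 over the 11). The remaining 5 were not called: DPM1, the catalytic subunit of that synthase (log2 0.11), its subunit DPM3 (-0.17), the polyprenol reductase SRD5A3 (0.03, with 40.4% of its transcript shared by a same-strand gene), the dolichyl pyrophosphate phosphatase DOLPP1 (0.06) and MPDU1, which is needed for use of the dolichol-linked donors (-0.15).

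Of the 12 glycosyltransferases, 8 rose, 2 fell and 2 were not called. ALG12, a mannosyltransferase of the lumenal steps, went from 48.5, 40.5 and 44.1 CPM in vehicle to 92.3, 82.7 and 84.9, the largest rise of this step and without overlap (log2 0.96, SE 0.074, adjusted p = 2.28e-12). Its divergent neighbour CRELD2 is an ER stress gene whose GENCODE exons on the other strand share 168 of the 5330 bases of the ALG12 transcript. CRELD2 was at 88, 56.2 and 57.6 CPM in vehicle and 351.7, 332.8 and 353 under Tg (log2 2.36, SE 0.12). A lncRNA on the opposite strand shares 39.1% of the ALG12 exon bases, and the use of strand in counting is not given in the sources used here, so the ALG12 values may hold reads of either neighbour. ALG2, the mannosyltransferase that adds the second and the third mannose on the cytosolic face, went from 77.4, 76.9 and 73.8 CPM to 145.7, 138.4 and 133. The replicate spread of ALG2 was small beside this difference (log2 0.87, SE 0.071, adjusted p = 8.73e-12). DPAGT1, which starts the glycan by adding N-acetylglucosamine phosphate to dolichol phosphate and is the target of tunicamycin, went from 116.1, 107.3 and 112.4 CPM to 178.5, 171.7 and 172.7 (log2 0.64, SE 0.085). The ranges were again separate, and exons on the opposite strand share 18.8% of the DPAGT1 transcript.

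ALG13 and ALG14, which together add the next N-acetylglucosamine, rose by log2 0.58 and 0.34. ALG5, which makes the dolichol-linked glucose donor, rose by 0.38, the mannosyltransferase ALG9 by 0.29 and ALG11, a cytosolic-face mannosyltransferase, by 0.53. Exons of UTP14C on the same strand share 84.9% of the ALG11 transcript, so every ALG11 value is uncertain. Vehicle library 1 was at 13.6 CPM for ALG11 beside 24 and 22.5, and without it the rise was 0.31 (adjusted p = 0.0072). An unnamed same-strand gene shares 31.7% of the ALG9 transcript. The ALG9 call was lost without Tg library 3, and both ALG9 and ALG11 lost theirs with vehicle and Tg alone in the fit (adjusted p 0.0055 to 0.0704 for ALG9 and 7.36e-06 to 0.0782 for ALG11 over 11 alternatives each).

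The 2 glycosyltransferases that fell add the first and second glucose in the lumen. ALG6, the first of them, was at 49.1, 49.4 and 47.4 CPM in vehicle and 30.9, 33.8 and 32.9 under Tg. Its vehicle libraries were tightly grouped and well above those of Tg (log2 -0.58, SE 0.093, adjusted p = 8.13e-06). ALG8, the second, fell by 0.26 on the log2 scale (SE 0.074, adjusted p = 0.00649), from 211.7, 199.2 and 212.2 CPM in vehicle to 184.1, 173.1 and 162.3. The lumenal mannosyltransferase ALG3 was at 0.01 and ALG1, which adds the first mannose, at -0.20 (adjusted p = 0.937 and 0.0507). ALG1 was called lower in 4 alternatives, those with DESeq2, with RLE scaling and without vehicle library 2 or 3. Exons of EEF2KMT on the opposite strand share 25.2% of the ALG1 transcript.

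Oligosaccharyltransferase exists in forms built on the catalytic subunit STT3A, which acts with OSTC at the translocon during synthesis, or on STT3B, which acts with the oxidoreductase subunit MAGT1 or TUSC3. MAGT1 was at 104.7, 160.5 and 178.7 CPM in vehicle and 415.8, 421.2 and 403.9 under Tg. Even the highest vehicle library was far below the lowest Tg library (log2 1.48, SE 0.133, adjusted p = 8.41e-11), and without vehicle library 1 the difference was 1.28. TUSC3, its paralogue, was at 100.4, 100.6 and 96.6 CPM in vehicle and 95.2, 90.5 and 94.3 under Tg. TUSC3 was not called, with a log2 difference of -0.09 (95% interval -0.22 to 0.05), although its ranges just failed to overlap. OSTC went from 88.3, 99.8 and 90.6 CPM to 257, 237 and 247.2, a 2.66-fold rise without overlap (log2 1.41, SE 0.103, adjusted p = 5.39e-13).

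Both catalytic subunits rose. STT3A went from 598.5, 610.1 and 612.9 CPM to 1149, 1139 and 1121 (log2 0.90, SE 0.068, adjusted p = 1.24e-12). STT3B went from 197.1, 263.8 and 265.3 CPM to 358, 355.3 and 349 (log2 0.55, SE 0.09, adjusted p = 1.11e-05), with vehicle library 1 again low. Neither gene had overlapping groups. RPN1, or ribophorin I, a subunit of both forms, went from 485.9, 462.6 and 449.4 CPM to 776.8, 753.9 and 772.9 (log2 0.72, SE 0.056). The other shared subunits rose less, DDOST by 0.49, DAD1 by 0.32 and RPN2 by 0.16 on the log2 scale. Exons of PINK1-AS on the same strand share 21.5% of the DDOST transcript.

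Paired genes were compared within each library as ratios of CPM per kb. MAGT1 over TUSC3 was 0.856, 1.31 and 1.52 in the vehicle libraries and 3.58, 3.82 and 3.51 under Tg, so the mean moved from 1.23 ± 0.339 (SD, n = 3) to 3.64 ± 0.161. STT3A over STT3B was 2.77, 2.11 and 2.11 in vehicle, with library 1 high, and 2.93 in each Tg library. UGGT1 over UGGT2, the glucosyltransferases that tag misfolded glycoproteins for another round of folding, was 3.12, 3.55 and 3.24 in vehicle and 4.87, 4.5 and 4.87 under Tg. No Tg library overlapped the vehicle range for any of the 3 ratios, and vehicle library 1 set the edge nearest to Tg for STT3A over STT3B. The ratios were not tested.

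**Figure D2:**
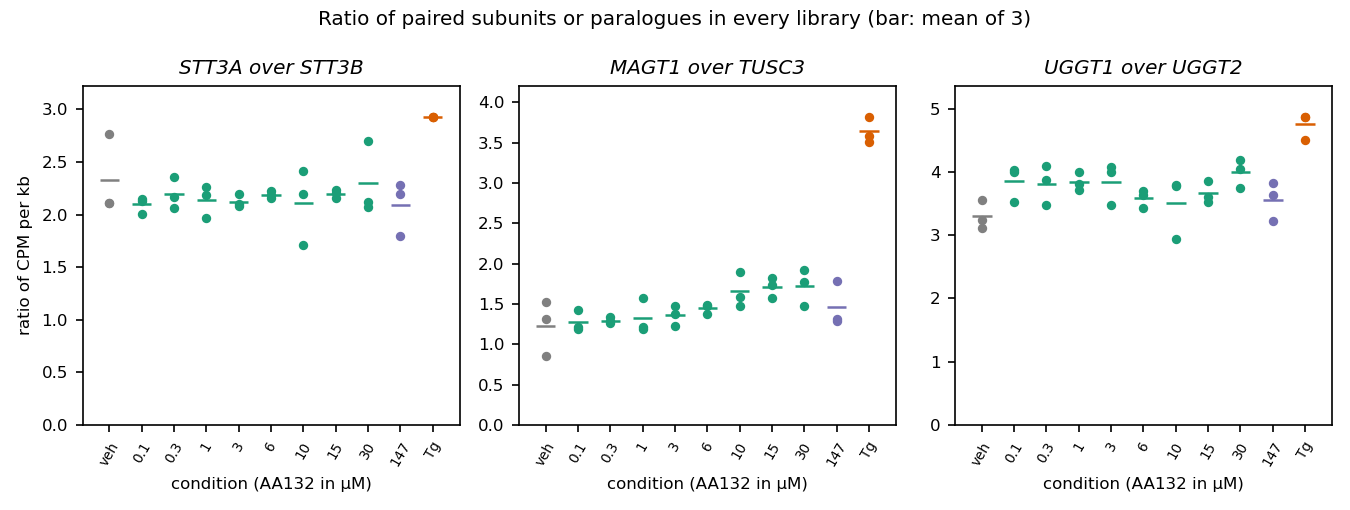
Ratio of CPM per kb (y axis) for STT3A over STT3B, MAGT1 over TUSC3 and UGGT1 over UGGT2 in each of the 33 libraries, by condition (x axis, AA132 in µM), with bars for the mean of 3 libraries. MAGT1 over TUSC3 is 1.23 on average in vehicle, 1.72 at 30 µM AA132 and 3.64 under Tg.

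Glycan trimming was mixed, with 3 genes risen, 1 fallen and 2 not called. UGGT1 went from 243.1, 335.7 and 297.7 CPM in vehicle to 454.9, 438.4 and 455.2 (log2 0.62, SE 0.076, adjusted p = 6.58e-08). UGGT2 was at 35.1, 42.6 and 41.4 CPM in vehicle and 42.1, 43.9 and 42.2 under Tg. The groups of UGGT1 were separate and those of UGGT2 overlapped (log2 0.11 for UGGT2, 95% interval -0.05 to 0.26). MAN1B1, the ER mannosidase whose trimming marks glycoproteins for degradation, was at 104.9, 78.5 and 75.9 CPM in vehicle and 56.7, 52 and 55.4 under Tg. This was the largest fall among the members (log2 -0.66, SE 0.08, adjusted p = 6.34e-08), with vehicle library 1 the highest.

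MOGS, the glucosidase I that removes the outermost glucose, was at 143, 111.9 and 117.9 CPM in vehicle and 150.8, 155.6 and 152.5 under Tg (log2 0.30, SE 0.074, adjusted p = 0.00196). GANAB was at 1109, 1112 and 1042 CPM in vehicle and 1211, 1177 and 1274 under Tg (log2 0.17, SE 0.058, adjusted p = 0.0267). The ranges of both were separate, but the GANAB call was lost in 5 of 11 alternatives, including those without Tg library 1 or 3 or vehicle library 3 (adjusted p 0.0125 to 0.187). The MOGS call was lost with vehicle and Tg alone in the fit (adjusted p 1.91e-05 to 0.0786 over 11 alternatives). PRKCSH was not called (log2 -0.10).

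Genes of the same route outside the 39 were counted from lists drawn up by function. Among 16 other genes of sugar supply and nucleotide sugars, 6 rose and 3 fell under Tg, where 31.2% of all genes were called. GMPPB, the catalytic subunit of the enzyme that makes GDP-mannose, had the largest rise (log2 1.57, SE 0.102), from 21.8, 14.5 and 18.7 CPM to 56.2, 53.6 and 53.7. NANS, a sialic acid synthase, rose by 1.32. GFPT2, the paralogue of GFPT1, fell by 0.51. Of 5 further genes of dolichol and the lipid-linked oligosaccharide, NUS1 and DHDDS, which together form the cis-prenyltransferase that makes the dolichol chain, rose by 0.85 and 0.42, and 3 were not called. Of 3 small oligosaccharyltransferase subunits, TMEM258 rose by 0.44, while OST4 and KRTCAP2 were not called.

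Of 11 genes that read or act on trimmed glycans in quality control, 9 rose, 1 fell and 1 was not called under Tg, with a median log2 fold change of 0.84. Over all genes tested 16.2% were called higher and 15% lower. EDEM1, which directs misfolded glycoproteins to degradation, went from 56.2, 73.9 and 61 CPM to 184.6, 192.7 and 168.3 (log2 1.51, SE 0.081). CANX, or calnexin, went from 622.5, 904.9 and 854 CPM to 2043, 2120 and 2184 (log2 1.41, SE 0.095), with vehicle library 1 low. Neither gene had overlapping groups. ENGASE, a cytosolic enzyme that cuts free glycans, fell by 0.35.

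AA147 at 10 µM left no member past the threshold, and 4 genes of all tested were called, or 0.0225%. At an unadjusted p under 0.05 there were 8 members, all with positive log2 differences and 5 of them oligosaccharyltransferase subunits, and DESeq2 called 0. Over all genes tested 6.81% had such a p. RPN1 was at 577.9, 503.5 and 495.5 CPM against 485.9, 462.6 and 449.4 in vehicle (log2 0.17, SE 0.056, adjusted p = 0.469). Library 1 of AA147 was the highest of the 30 libraries without Tg for 9 members. It stood apart for MAGT1 too, at 237.2 CPM beside 162.9 and 161.2, and for OSTC, at 135.7 beside 100.7 and 98.7. Over all members the median log2 difference was 0.08, and over all genes 0.01.

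AA132 left no member called at 0.1, 0.3 or 1 µM, doses at which 0%, 0% and 0% of all genes were called. None was called at 3, 6 or 10 µM either, where 0.118%, 1.07% and 1.41% of genes passed. Members at an unadjusted p under 0.05 numbered 1, 0, 2, 1, 4 and 10 of 39 over these 6 doses, beside 4.47%, 5.51%, 5.94%, 9.19%, 12.3% and 12.9% of all genes. The share of members was thus below or near that of all genes except at 10 µM, where it was 25.6%. With DESeq2 the counts of members called were 0 up to 3 µM, 1 at 6 µM and 4 at 10 µM. HSPA5 was called from 3 µM on (log2 0.78, SE 0.156, adjusted p = 0.0351), but its 3 µM libraries were at 1921, 1969 and 1042 CPM, the last close to vehicle, and library 1 of 1 µM was at 1660 beside 1028 and 1093. CRELD2 had the same libraries apart, at 72.5 CPM in 3 µM library 3 beside 89.3 and 90.7, and at 89.7 in 1 µM library 1 beside 62.2 and 66. For both genes, each of these libraries lay closer to the remaining libraries of the other dose. An exchange of labels was not tested, and the columns were used as named. At 15 µM ALG12 was the 1 member called, against 2.76% of all genes, while DESeq2 called 4 members and the fit without a filter 5. ALG12 was at 54.3, 55.2 and 56.2 CPM there, above all 3 vehicle libraries (log2 0.31, SE 0.075, adjusted p = 0.0137). The call was lost without 15 µM library 2 or 3, without vehicle library 2, or with the 2 conditions alone in the fit (adjusted p 0.00156 to 0.414 over 11 alternatives).

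**Figure D3:**
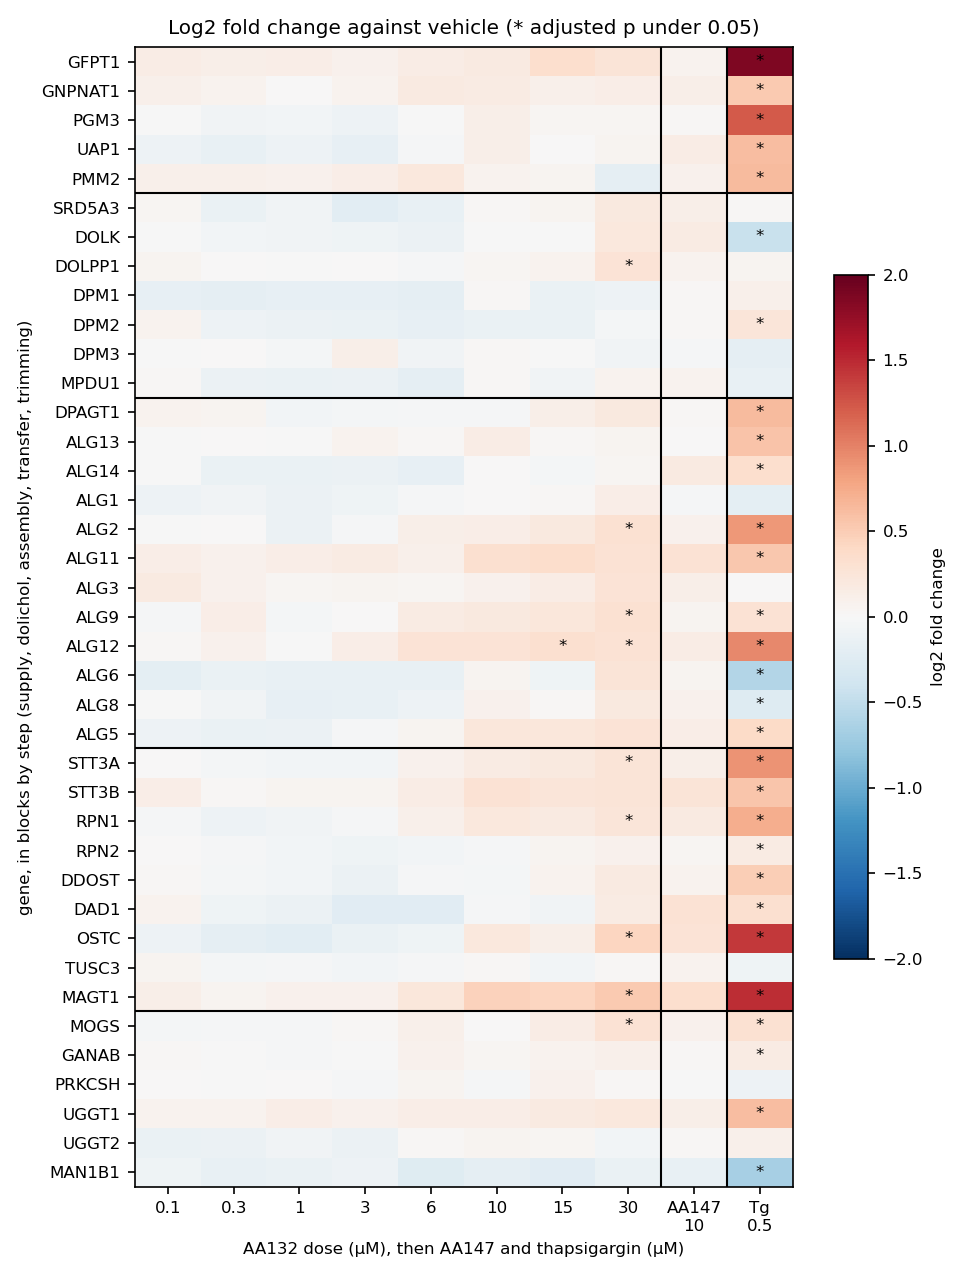
Log2 fold change against vehicle for the 39 members (rows, in blocks by step) at the 8 AA132 doses, AA147 at 10 µM and Tg at 500 nM (columns), with colour from -2 to 2 and stars for an adjusted p under 0.05. Of the columns other than Tg, 30 µM AA132 carries 9 stars and 15 µM carries 1, and none falls in the sugar supply block. All columns share the 3 vehicle libraries.

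At 30 µM AA132, 9 members rose and none fell, where 7.05% of all genes were called and 3.86% called higher. They were 4 of the oligosaccharyltransferase subunits, 3 of the mannosyltransferases, DOLPP1 and MOGS. No gene of sugar supply was called. The median log2 difference was 0.20 over the members and near 0 (-0.001) over all genes. Every one of the 9 calls was lost when the fit held these 2 conditions alone, a fit that called 74 genes in all.

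The 4 subunits that rose at 30 µM were all further raised under Tg, as the direct comparison below shows. OSTC was at 116.9, 130.4 and 130.1 CPM, clear of the vehicle range (log2 0.44, SE 0.102, adjusted p = 0.00635, and 5.03e-06 to 0.0902 over 11 alternatives). MAGT1 was at 217, 232.3 and 185.9 CPM, and its lowest library was close to the highest vehicle library at 178.7. Its difference of 0.52 (SE 0.131, adjusted p = 0.0126) became 0.32 without vehicle library 1 and was then not called (adjusted p = 0.0652, and 2.86e-09 to 0.295 over 11 alternatives), nor was it without 30 µM library 2. STT3A was at 678.3, 721.9 and 768.9 CPM and RPN1 at 534.3, 558.8 and 567.9, both above all vehicle libraries (log2 0.25, SE 0.068 for STT3A and 0.25, SE 0.056 for RPN1). The STT3A call was lost without 30 µM library 2 or 3 (adjusted p 0.00451 to 0.22 over 11 alternatives).

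Among the lipid-linked steps, ALG2 was at 90.4, 92.3 and 100.1 CPM (log2 0.31, SE 0.071, adjusted p = 0.00552). ALG9 was at 50.7, 57.5 and 54.8 CPM against 45.2, 42.7 and 43.5 in vehicle (log2 0.31, SE 0.086, adjusted p = 0.0223). ALG12 was at 56.4, 53.1 and 53.7 CPM (log2 0.29, SE 0.075, adjusted p = 0.0129). None of these overlapped vehicle, but the ALG9 call was lost in 5 of 11 alternatives (without 30 µM library 2 or 3 or vehicle library 2 or 3 among them) and the ALG12 call in 3 (without 30 µM library 1 or vehicle library 2 among them). DOLPP1, which recycles dolichol after transfer, was at 119.5, 124.2 and 131.4 CPM against 113.3, 95.8 and 102.2 (log2 0.27, SE 0.062, adjusted p = 0.00561). Of the trimming genes, MOGS was at 150.6, 143.9 and 161.6 CPM (log2 0.29, SE 0.074, adjusted p = 0.0129). The lowest MOGS library lay just above vehicle library 1, at 143, and the call was lost without vehicle library 2 or 3 or 30 µM library 3 (adjusted p 0.000155 to 0.323 over 11 alternatives).

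The sugar supply genes gave small values at the same dose: log2 0.26 for GFPT1 (adjusted p = 0.124), 0.13 for GNPNAT1, 0.05 for PGM3, 0.05 for UAP1 and -0.18 for PMM2. For PGM3 the 95% interval was -0.08 to 0.17. Without vehicle library 1, which is low for GFPT1, the GFPT1 difference was 0.09 (adjusted p = 0.577).

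The dose series was also fitted without the vehicle libraries, as a slope on log10 dose over the 24 AA132 libraries. In this fit 15 of 39 members rose with dose and none fell, where 18.7% of 17554 genes were called, 9.83% rising and 8.89% falling. By step these were UAP1 alone in sugar supply, no dolichol or donor gene, 7 of 12 glycosyltransferases (ALG1, ALG2, ALG11, ALG9, ALG12, ALG6 and ALG5), 5 of 9 oligosaccharyltransferase subunits (STT3A, STT3B, RPN1, OSTC and MAGT1), and MOGS and UGGT2 in trimming. The UGGT2 call (adjusted p = 0.0405) was lost in 15 of 29 alternatives (adjusted p 0.00854 to 0.299), 13 of which left out 1 library from across the doses. The ALG11 call (adjusted p = 0.0227) was lost without 0.1 µM library 1 or 30 µM library 2 (adjusted p 0.0108 to 0.0607 over 29 alternatives).

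The steepest slopes were those of OSTC, MAGT1 and ALG5. OSTC changed by 0.20 in log2 per 10-fold dose (SE 0.038, adjusted p = 0.000271), from a mean of 86.6 ± 4.23 CPM with 0.1 µM to 125.8 ± 7.71 with 30 µM. Its means lay between 80.1 and 87.7 CPM for all doses up to 6 µM, below every vehicle library. The 3 libraries of 15 µM were spread from 90.4 to 118.8. MAGT1 had a slope of 0.19 (SE 0.031, adjusted p = 5.25e-05), and its mean went from 160.1 ± 6.39 CPM with 0.1 µM to 172.8 ± 2.26 with 6 µM and 211.7 ± 23.6 with 30 µM. ALG5 had a slope of 0.18 (SE 0.027, adjusted p = 1.04e-05), from 45, 51.9 and 49.9 CPM at 0.1 µM to 58.7, 64.6 and 66.3 at 30 µM. At these outer doses the ALG5 libraries did not overlap, but ALG5 was not called at 30 µM against vehicle.

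The profiles of ALG12, ALG2 and ALG6 differed in shape, which was not tested. ALG12 had a mean of 44.2 ± 2.07 CPM with 1 µM, 53.4 ± 1.16 with 6 µM and 54.4 ± 1.77 with 30 µM, and the last 2 differed by less than their spread (slope 0.13, SE 0.023). ALG2 went from 70.3 ± 0.658 CPM with 1 µM over 82.4 ± 1.26 with 6 µM to 94.3 ± 5.1 with 30 µM (slope 0.13, SE 0.026). ALG6 was between 42.5 and 50.2 CPM on average from 0.1 to 15 µM and at 57.4, 59.2 and 58.7 in the libraries of 30 µM (slope 0.13, SE 0.032). With the vehicle libraries added to the slope below the lowest dose, the calls of UAP1, ALG1, ALG6 and UGGT2 were lost.

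**Figure D4:**
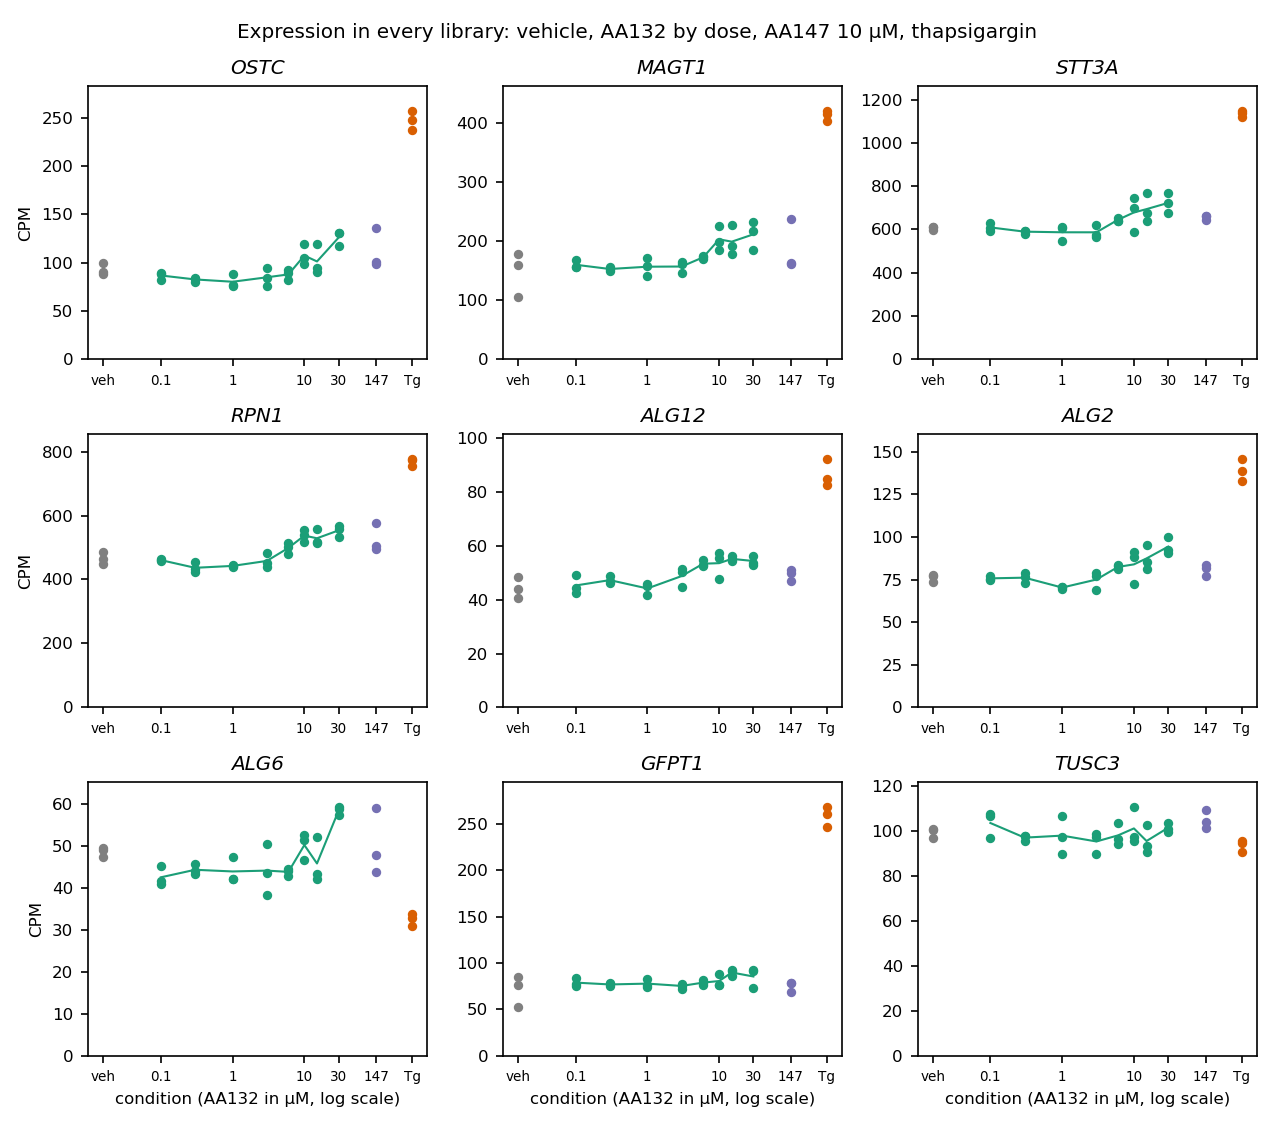
CPM (y axis, from 0) of 9 members in every library: vehicle (grey), AA132 by dose (green, log axis in µM, line through the means), AA147 at 10 µM (purple) and Tg (orange). OSTC, MAGT1, STT3A, RPN1 and ALG2 have their highest AA132 mean at 30 µM, ALG12 is level from 6 µM on, all 6 stay well below Tg, ALG6 is highest at 30 µM and lowest under Tg, and GFPT1 stays between 52.5 and 92.9 CPM outside Tg.

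AA132 and AA147 could be compared at 10 µM, the 1 dose they share. No member differed at an adjusted p under 0.05, where 0.0674% of all genes did, and DESeq2 called 0 members too. DAD1, a small subunit of oligosaccharyltransferase, had the largest difference, at 134.2, 98.5 and 97.7 CPM with AA132 and 164.4, 122.1 and 126.8 with AA147 (log2 -0.32, 95% interval -0.57 to -0.08, adjusted p = 0.424). Its ranges overlapped, with library 1 high in both conditions. DOLK was the other member at an unadjusted p under 0.05 (log2 -0.18). The 95% intervals had a median half-width of 0.16, and 38 of the 39 lay within 0.5 of 0 on either side, so differences larger than that lie outside the intervals for every member but DAD1.

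AA132 at 30 µM was set directly against Tg, which needs no vehicle library. Of the 39 members 26 differed, 8 higher and 18 lower with AA132, where 29.8% of all genes did, 14.3% higher and 15.5% lower. All 5 sugar supply genes were lower with AA132, from GFPT1 at 92.1, 91.2 and 72.9 CPM against 247, 261.2 and 268.1 (log2 -1.60, SE 0.104, adjusted p = 6.58e-14) to GNPNAT1 (log2 -0.40, SE 0.091). Of the 9 oligosaccharyltransferase subunits 6 were lower, OSTC by log2 -0.97, MAGT1 by -0.97, STT3A by -0.65, RPN1 by -0.47, DDOST by -0.32 and STT3B by -0.29. The remaining members lower with AA132 were DPM2, DPAGT1, ALG13, ALG14, ALG2, ALG12 and UGGT1.

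The members higher with AA132 included all 4 that fell under Tg, which is no separate result because the Tg libraries are the same. ALG6 was at 57.4, 59.2 and 58.7 CPM with AA132 and 30.9, 33.8 and 32.9 under Tg (log2 0.84, SE 0.093, adjusted p = 9.85e-09). DOLK was at 53.9, 59.3 and 63.5 CPM against 35.4, 41 and 35.5 (log2 0.66, SE 0.081), and MAN1B1 at 77.1, 76.4 and 82.2 against 56.7, 52 and 55.4 (log2 0.52, SE 0.08). ALG8 was at 232.8, 241.5 and 242 CPM against 184.1, 173.1 and 162.3 (log2 0.46, SE 0.074). None of these 4 overlapped. ALG1, ALG3, MPDU1 and DOLPP1 were also higher with AA132, by log2 0.32, 0.27, 0.21 and 0.21.

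MOGS and ALG9 were near the same level with both compounds. MOGS differed by -0.01 on the log2 scale (95% interval -0.16 to 0.14) and ALG9 by 0.02 (-0.15 to 0.20), and for each the libraries overlapped. The other 11 members not called were SRD5A3, DPM1, DPM3, ALG11, ALG5, RPN2, DAD1, TUSC3, GANAB, PRKCSH and UGGT2, with differences from -0.25 for ALG11 to 0.16 for SRD5A3.

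Of the 11 quality control genes, 3 were called with AA132 at 6 µM and at 10 µM, 4 at 15 µM and 3 at 30 µM, all higher. The shares of all genes called at these doses were 1.07%, 1.41%, 2.76% and 7.05%. CALR, or calreticulin, CANX and PDIA3, the disulfide isomerase that works with both, were called at each of these doses, and MLEC, a lectin of glucosylated glycans, at 15 µM. At 30 µM CALR was at 1667, 1766 and 1873 CPM against 1270, 1168 and 1111 in vehicle (log2 0.58, SE 0.091), and CANX at 1207, 1248 and 1101 against 622.5, 904.9 and 854 (log2 0.58, SE 0.093). Neither overlapped. CRELD2, the divergent neighbour of ALG12, was also called at these 4 doses, at 103, 97 and 105.6 CPM for 30 µM (log2 0.60, SE 0.116). NANS, UAP1L1 and GNPDA2 were the other sugar supply genes called at 30 µM, by log2 0.38, 0.59 and 0.38.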

How the data were processed

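RNA from HEK293T cells was sequenced on a DNBSEQ platform per the labels, and the authors deposited 1 table of expected counts per gene for 33 libraries of 11 conditions. The genome build was GRCh38 p7 per the submitters' processing notes. The aligner, counting tool, annotation and use of strand are not given in the sources used here. The deposited table writes 0.009 in 43.5% of its cells, read here as 0, and 3.22% of cells are fractional, so the expected counts were rounded. The 98 entries that share 45 names were summed, giving 38021 genes, while 28 entries named as dates were kept apart. Columns of 1 condition differed by more than counting noise (chi-square over degrees of freedom of 4.67 to 64.5), so all were kept as libraries.

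From these counts, edgeR 4.0.16 (R 4.3.3) fitted all 11 conditions in 1 quasi-likelihood model with TMM scaling and filterByExpr, with Benjamini-Hochberg adjustment over all genes tested and a threshold of 0.05. A slope on log10 dose was fitted over the 24 AA132 libraries. Intervals are 95%. The fit was also run on simulated counts drawn independently for each library, which cannot show the effect of libraries that stand apart. Alternatives were DESeq2 1.42.0, RLE scaling, no filter, only the conditions compared, a replicate block and each library left out. Lengths and overlaps of exons are from GENCODE 44 and promoters from RefSeq. Members and lists were chosen with earlier results of these data known. The named members were the 4 largest Tg changes called in each step, every member called with AA147 or AA132, the 3 steepest slopes and the paired genes. Of each outside list up to 2 called genes with the largest Tg change were to be named, and further ones were named after their values were seen. GFPT2, KRTCAP2, OST4, ENGASE, CALR, PDIA3, UAP1L1, GNPDA2, MAN1A1, MAN1A2 and CRELD2 are such additions.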

Additional observations from a re-analysis of the deposited data

How the results depend on the processing

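Of 831 values for single members under the alternatives run, 766 kept their call, 61 lost it, 4 gained one (all ALG1 under Tg) and 0 reversed. Counts of members called moved by over 1.5 times in these cases. DESeq2 called 1 member for AA132 at 6 µM, 4 for 10 µM and 4 for 15 µM. Without the filter on low counts, 1 was called for AA147, 2 for 10 µM AA132, 5 for 15 µM and 1 for AA132 against AA147 at 10 µM. With only the conditions compared in the fit, 0 were called at 15 µM and 0 at 30 µM. The cause was not tested. Leaving out 1 library at a time gave 24 to 29 members for Tg, 0 to 1 with 6 µM, 0 to 3 with 10 µM, 0 to 5 with 15 µM, 6 to 13 with 30 µM, 22 to 24 for AA132 at 30 µM against Tg and 13 to 19 for the slope. At 6 µM the highest count came without any 1 vehicle library, at 10 µM without 10 µM library 1, and at 15 µM without vehicle library 2, while it fell to 0 without 15 µM library 2 or 3. Without vehicle library 1 there were 29 for Tg, 1 with 6 µM, 2 with 10 µM, 3 with 15 µM and 13 with 30 µM, 8 of them among the 9 called with it. Same-numbered libraries did not deviate together in the median pair (correlation 0.000614, 2 of 165 pairs above 0.1, highest 0.183), and 13 of 33 libraries correlated best with their own number. Single pairs could still deviate alike. For DPM1, library 1 was high at 10 µM AA132 (124.4 CPM beside 83.1 and 91.1) and with AA147 (114.7 beside 94.5 and 88.7). For DOLK it was the lowest of the former (47.7 beside 54.8 and 48.4) and the highest of the latter (59.6 beside 53.7 and 57.3). The replicate block left the counts at 29 for Tg, 9 at 30 µM, 1 at 15 µM, 26 for AA132 at 30 µM against Tg and 15 for the slope. With 3 libraries a condition, differences under about the interval half-widths given could not be seen.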

Other observations

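Later steps of the same route were also counted under Tg, where 31.2% of all genes were called. Of 10 genes of N-glycan processing in the Golgi, 5 rose, 1 fell and 4 were not called. MAN1C1, a Golgi mannosidase, was at 14, 13.6 and 13.7 CPM in vehicle and 6.6, 6.96 and 7.22 under Tg (log2 -0.99, SE 0.095, adjusted p = 3.31e-10). Its groups were far apart, while MAN1A1 and MAN1A2, mannosidases of the same family, rose by 0.41 and 0.52. MGAT2, an N-acetylglucosaminyltransferase, went from 53.1, 59.5 and 57.2 CPM to 86.7, 89.2 and 92.5 (log2 0.66, SE 0.065). No Golgi gene of the list was called at 30 µM AA132.

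Dolichol phosphate mannose also serves GPI anchors and O- and C-mannosylation. Of 9 genes of those uses, 0 rose, 1 fell and 8 were not called under Tg, with 2 at an unadjusted p under 0.05. POMT1, a protein O-mannosyltransferase, was at 170, 135.6 and 138.2 CPM in vehicle and 137.1, 130.2 and 125.7 under Tg (log2 -0.17, SE 0.062, adjusted p = 0.0297). Its ranges overlapped, with vehicle library 1 high.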
